A study of Mus musculus with 38 samples.

Results

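The genes described here are the 34 integrin and focal adhesion genes of the mouse: 18 integrin alpha chains, 8 integrin beta chains, the 2 discoidin domain receptors and 6 proteins that couple integrins to actin. They were chosen by symbol out of 55487 genes in the count tables, and 33 of them passed the filter on low counts in tumors, which asks for 1 CPM (counts scaled to the size of a library) or more in 25% of the tumors. The exception was Itgb6, the beta chain of an epithelial integrin, which did not exceed 2.26 CPM in any tumor and was not tested. Bulk RNA-seq was available from omental tumors of 2 mouse models of high-grade serous ovarian cancer (HGSOC) and from the 2 cell lines that give rise to them. The 60577 line was grown in female FVB mice and the HGS2 line in female C57BL/6J mice, which were 8 to 9 weeks old when the cells were injected into the peritoneum. Tumors therefore hold malignant cells of 1 line and the host's own stroma and leukocytes, and the effects of line and strain cannot be told apart. The alleles that the malignant cells carry are not given in the sources used here.

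Treated mice received 3 weekly doses of carboplatin at 20 mg/kg with paclitaxel at 10 mg/kg, beginning 21 days after injection of 60577 cells or 49 days after injection of HGS2 cells, and control mice received the vehicle of Kolliphor EL, ethanol, water and PBS. Tumors were taken 1 day (TP1), 7 days (TP2) or 21 days (TP3) after the last dose. At a given time point HGS2 tumors, control or treated, were thus taken later after injection than 60577 tumors. Between models, the effects of this time, line and strain cannot be told apart. The 60577 model had 3 control and 3 treated tumors at TP1, 3 control and 4 treated tumors at TP2, and 4 treated tumors at TP3. The HGS2 model had 3 and 3 at TP1, 4 and 3 at TP2, and 4 treated tumors at TP3, of which replicate 1 does not enter the study's own tables and was left out of the fits used for HGS2. No TP3 controls existed, so TP3 tumors were compared with TP2 controls, and there the effects of treatment and of elapsed time cannot be told apart. Each cell line was sequenced in monoculture in 2 libraries.

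Integrins are receptors made of 1 alpha and 1 beta chain that span the membrane, hold the cell to its extracellular matrix (ECM) or to another cell, and pass signals in both directions. The alpha chain largely sets the ligand: some bind collagen, some laminin, some the RGD motif of fibronectin and vitronectin, and a further set, found on leukocytes, binds counter-receptors on endothelium and other cells. Inside the cell, talin and kindlin activate the beta chain, and vinculin, paxillin, integrin-linked kinase and focal adhesion kinase assemble on it to join actin. The discoidin domain receptors are tyrosine kinases that bind collagen independently of integrins, DDR1 mostly in epithelium and DDR2 mostly in mesenchyme.

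Totals ran from 17839635 to 49299442 counts in the 34 tumors and from 31633121 to 42461995 in the 4 cell line libraries. Several libraries stood apart. Pancreatic acinar genes summed to 69527 CPM in HGS2 TP1 control replicate 3, 134273 CPM in HGS2 TP2 control replicate 2 and 69645 CPM in HGS2 TP3 treated replicate 2. The small cytoplasmic 7SL RNA took 26.5% of the reads of one 60577 TP2 treated tumor. HGS2 TP3 treated replicate 1 held 749 CPM of B cell markers against 5.19 to 237 CPM in the other 3. 60577 TP2 control replicate 2 had the lowest endothelial marker sum of the 60577 tumors, at 39.3 CPM. In bulk tissue, fewer cells of a type and less RNA per cell cannot be told apart, and this holds for every gene below.

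In untreated tumors, levels per kilobase of merged exons (CPM per kb) ranged over more than 3 orders of magnitude among the members. Itgb1, the beta chain shared by most matrix-binding integrins, stood first in both models, at 146 ± 14.7 CPM per kb (SD, n = 6) in 60577 and 172 ± 35.6 CPM per kb (SD, n = 7) in HGS2. Tln1, the main talin, followed in 60577 at 92.5 ± 10.5 CPM per kb, then Itgb5, a vitronectin receptor beta chain, at 81.2 ± 17.9, and Ddr1 at 69.5 ± 4.62, neighbors whose ranges of 1 SD touch or overlap. In HGS2 the order was Itgb5 at 125 ± 37.8 and Tln1 at 73.7 ± 14.6 CPM per kb. In 60577 13 members reached 10 CPM per kb. Ddr2 was 26th of the 34 in 60577 at 1.52 ± 0.605 CPM per kb and 11th in HGS2 at 21.7 ± 12.8 CPM per kb. The lowest levels were those of Itgb6 and of Itgad, a leukocyte alpha chain, and of Itga8, which pairs with beta1 on mesenchymal cells.

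The cell lines show which members the malignant cells themselves transcribed in culture. Of the 34 members, 13 had a mean in untreated 60577 tumors over 4-fold above that of the 60577 line with no overlap of tumors and line libraries, and 1 a mean over 4-fold below, also without overlap, and the counts for HGS2 were also 13 and 1, against 15.7% and 1.52% of all genes in 60577 and 18.4% and 1.9% in HGS2. These are descriptions, since tumors and lines come from separately made tables. All 8 leukocyte integrin chains belonged to the 13 in 60577, and 7 of the 8, all but Itgad, did in HGS2. Itgam, the alpha chain of the complement receptor on myeloid cells, had 0 and 1 counts in the 60577 line and 0 in both HGS2 libraries, where 3 counts would correspond to 0.104 and 0.0857 CPM, while its mean was 115 CPM in untreated 60577 tumors and 168 CPM in untreated HGS2 tumors. Itga9, which binds tenascin and osteopontin, was likewise near 0 in both lines (0 to 0.484 CPM) and at 44.5 and 65.3 CPM in the untreated tumors. The member that was lower in tumors was Itga2, a collagen-binding chain, in 60577, with 3.74 CPM in tumors and 15.9 CPM in the line. In HGS2 it was Itga3, a laminin-binding chain of epithelium, with 62.8 CPM in tumors and 543 CPM in the line.

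**Figure D1:**
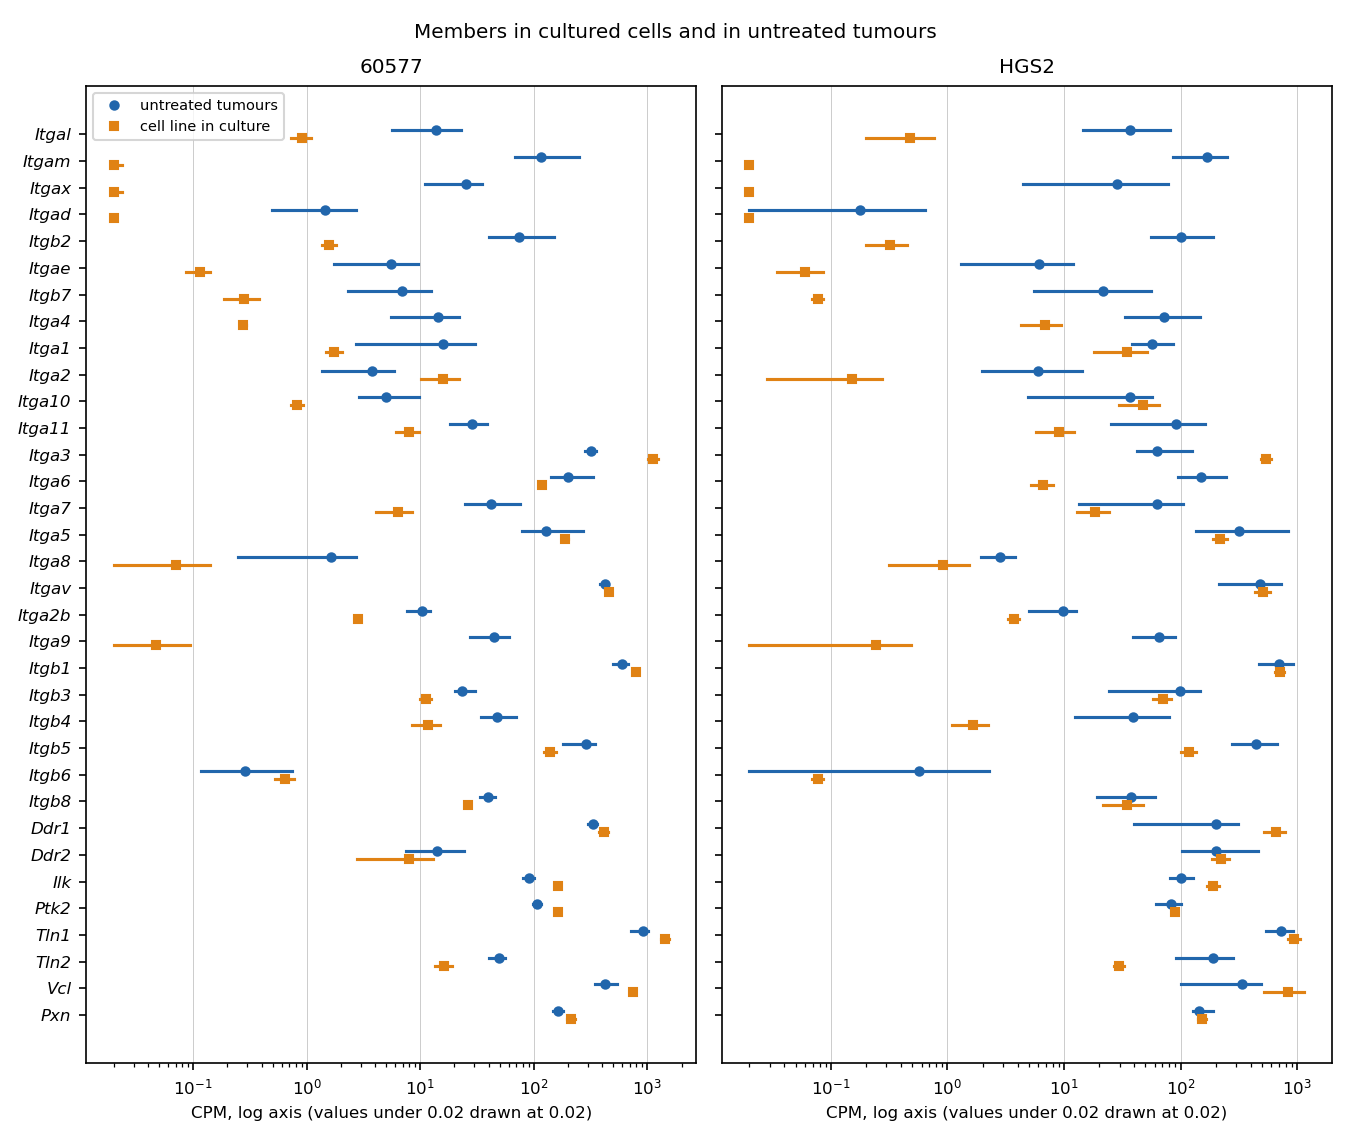
Level of each of the 34 genes in cultured cells (orange squares, mean of 2 libraries) and in untreated tumors (blue circles, mean of 6 tumors of 60577 or 7 of HGS2), in CPM on a log axis, with lines from the lowest to the highest library. Leukocyte integrins at the top lie far to the left in culture, whereas Itgb1, Itgav, Tln1 and Pxn lie close together in both.

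In 60577, members were called in both directions between treated and control tumors at each time point. A gene was called at an adjusted p under 0.05 with an absolute log2 fold change above 1, by the quasi-likelihood test of edgeR, its p-values adjusted over all 16241 tested genes (Benjamini-Hochberg). At TP1, 12 of 33 members were called (36.4%), 10 higher and 2 lower, where 15.6% of all genes were called, 9.65% higher and 5.96% lower. At TP2 16 were called (48.5%), 10 higher and 6 lower, with 24.4% of all genes called, 14.8% higher and 9.61% lower. At TP3 14 were called (42.4%), 9 higher and 5 lower, with 24.4% of all genes called, 14.2% higher and 10.2% lower. The median log2 fold change of the members was 0.53, 0.14 and 0.12 at the 3 time points, and that of all genes was -0.0021, 0.03 and -0.00039. By the adjusted p alone 18, 23 and 20 members passed, against 33.3%, 58.4% and 51.4% of all genes. TP2 and TP3 were set against the same 3 controls and are not independent of each other. Without 60577 TP1 treated replicate 3 the TP1 count was 7, with calls left for Itgb2, Itgb7, Itga3, Ddr2, Itga4, Itgam and Itgal.

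**Figure D2:**
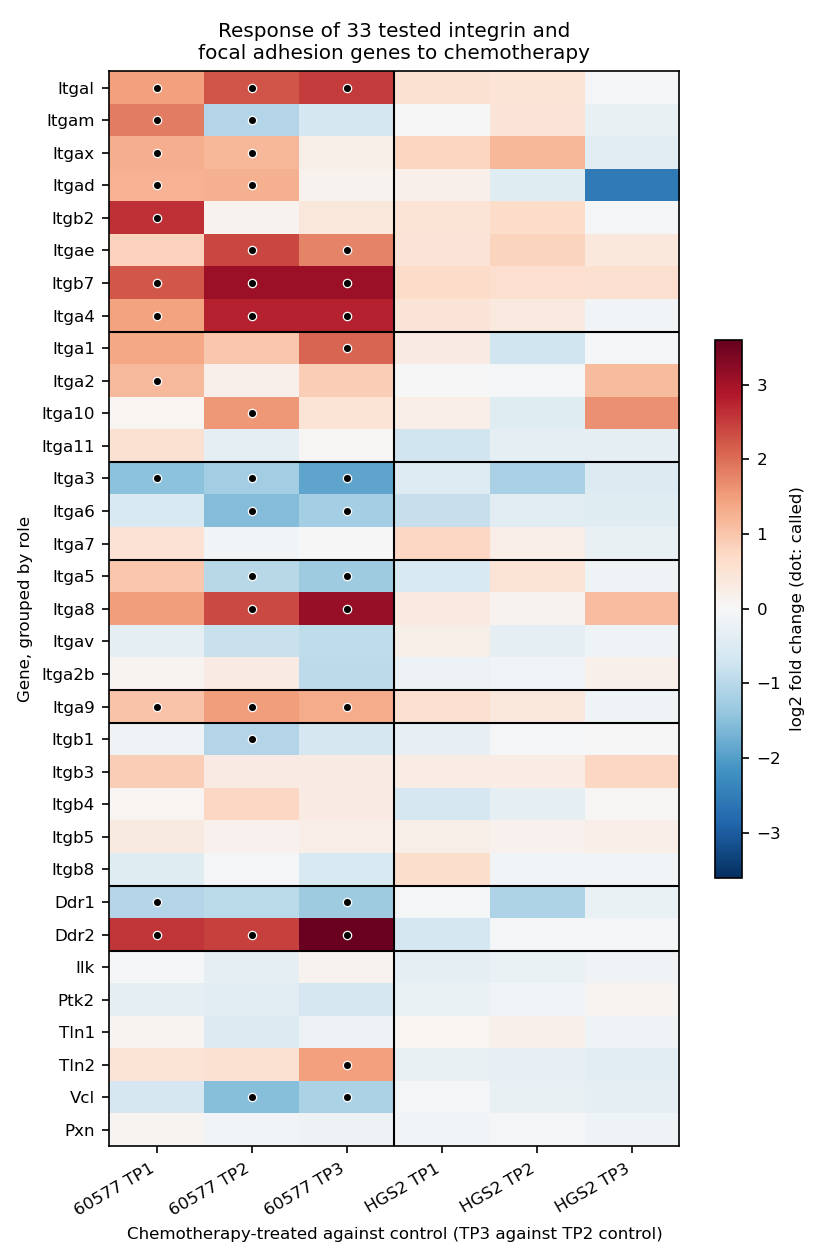
Log2 fold change of the 33 tested members (rows, grouped by role) in chemotherapy-treated against control tumors at each time point (columns), red for higher and blue for lower in treated tumors, with a dot where a member was called. The 60577 columns carry 12, 16 and 14 dots at TP1, TP2 and TP3, and none stands in the HGS2 columns.

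Of the 8 leukocyte integrin chains, 7 were called higher at TP1, among 10 members called higher. At TP2 6 of the 10 called higher were leukocyte chains, and 1 leukocyte chain was called lower. At TP3 4 of the 9 called higher were leukocyte chains, and none was called lower. Their median log2 fold change was 1.46, 1.78 and 1.1 at TP1, TP2 and TP3. The beta2 chain and its myeloid partner Itgam were called higher at TP1 and not at TP2 or TP3, whereas alphaL, alpha4 and beta7 were called higher at all 3 times and alphaE at TP2 and TP3.

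Itgb2, the beta chain common to the leukocyte-restricted integrins, was at 40.7, 56.5 and 58.6 CPM in TP1 controls and at 394, 193 and 372 CPM in TP1 treated tumors. TP2 controls had 89.7, 149 and 50.2 CPM and TP2 treated tumors 143, 105, 75.2 and 105 CPM. All TP1 treated tumors lay above all TP1 controls, and at TP2 the groups overlapped. The log2 fold change was 2.63 ± 0.37 (SE) at TP1 (adjusted p = 0.00011), a 6.18-fold increase, and 0.13 at TP2, which did not pass. From TP1 to TP2 treated tumors, Itgb2 fell by 1.59 on the log2 scale (adjusted p = 0.00698).

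Itgam followed the same course. It was at 68.4, 85.3 and 86.1 CPM in TP1 controls and 337, 232 and 283 CPM in TP1 treated tumors, groups that did not overlap. TP2 controls had 127, 250 and 75.4 CPM, and TP2 treated tumors 107, 73.4, 41.1 and 72.1 CPM, where replicate 2 of the controls stood far above the rest. The change was 1.83 ± 0.42 at TP1 (adjusted p = 0.00367). At TP2 it was -1.06 ± 0.37 (adjusted p = 0.0249), but without control replicate 2 it was -0.48 (adjusted p = 0.271). Between treated tumors of TP1 and TP2 Itgam fell by 1.96 (adjusted p = 0.00573), and the ranges of both groups were apart.

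Neutrophil markers rose with these 2 chains at TP1, and the later time points differed. The 5 of them (S100a8, S100a9, Csf3r, Cxcr2, Retnlg) summed to 9 to 21.3 CPM in TP1 controls and 32.1 to 139 CPM in TP1 treated tumors, and to 17.4 to 44.1 and 16.1 to 21.6 CPM at TP2. All 4 that were tested were called higher at TP1, and 3 of the 4 were called lower at TP2. The macrophage markers, on cells that also carry Itgam, summed to 320 to 521 CPM in TP1 controls and 750 to 874 CPM in TP1 treated tumors. They summed to 351 to 600 CPM in TP2 controls, 450 to 857 CPM in TP2 treated and 899 to 990 CPM in TP3 treated tumors. They were thus highest at TP3, where Itgb2 and Itgam were not called. Pan-leukocyte markers summed to 231 to 406 CPM in TP1 controls and 769 to 893 CPM in TP1 treated tumors. None of these lists was at 0 in any tumor, and their part in the changes of Itgb2 and Itgam was not tested.

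Itgal, the alpha chain of LFA-1 on lymphocytes, stayed high after the beta2 chain had come down. Controls had 8.11, 19.8 and 13.3 CPM at TP1 and 22.8, 5.64 and 12.1 CPM at TP2. Treated tumors had 27.1, 41.1 and 45.5 CPM at TP1, then 77.0, 52.7, 60.3 and 73.2 CPM at TP2, and 79.7, 76.3, 74.0 and 76.9 CPM at TP3. Treated and control tumors did not overlap at any time. The log2 fold changes were 1.47 ± 0.38 (adjusted p = 0.00895), 2.27 ± 0.38 (adjusted p = 0.000186) and 2.51 ± 0.38 (adjusted p = 7.62e-05).

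Itgb7 pairs with alpha4 for homing to mucosa and with alphaE for adhesion to E-cadherin. Among the leukocyte integrin chains, Itgb7 gave the largest increases at TP2 and TP3. It was at 2.30, 9.44 and 7.41 CPM in TP1 controls and 12.4, 4.84 and 4.65 CPM in TP2 controls. Treated tumors held 18.8, 40.2 and 31.0 CPM at TP1, 77.3, 49.9, 57.6 and 67.1 CPM at TP2, and 64.9, 62.8, 55.5 and 64.9 CPM at TP3. All treated tumors lay above all controls, and the fold changes were 4.71, 8.53 and 8.50 (log2 2.24 ± 0.44, 3.09 ± 0.44 and 3.09 ± 0.44, adjusted p = 0.00147, 5.28e-05 and 4.2e-05).

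Its partner Itga4, which on lymphocytes binds VCAM1 and MAdCAM-1, was at 9.51, 19.3 and 14.3 CPM in TP1 controls and 22.1, 5.52 and 15 CPM in TP2 controls. It reached 28.7, 55.0 and 34 CPM at TP1, 115, 76.5, 95.2 and 101 CPM at TP2, and 103, 93.7, 93.8 and 97.0 CPM at TP3, again without overlap. The log2 fold changes were 1.45 ± 0.37 (adjusted p = 0.00815), 2.76 ± 0.38 (adjusted p = 3.93e-05) and 2.78 ± 0.38 (adjusted p = 2.84e-05). Between TP1 and TP2 treated tumors it rose by a further 1.3 ± 0.35 (adjusted p = 0.0223).

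Itgae, the alphaE chain of intraepithelial lymphocytes and some dendritic cells, was not called at TP1. TP2 controls had 9.60, 1.76 and 5.09 CPM, TP2 treated tumors 40.8, 26.4, 23.5 and 26.5 CPM, and TP3 treated tumors 19.8, 17.6, 16.3 and 22.3 CPM. The treated tumors of both times lay above the controls, with log2 fold changes of 2.41 ± 0.56 (adjusted p = 0.00203) and 1.80 ± 0.54 (adjusted p = 0.012). Itgax and Itgad, which pair with beta2 on dendritic cells and macrophages, were called higher at TP1 (1.3 and 1.24) and TP2 (1.19 and 1.29) and at neither did the groups overlap. At TP3 neither passed, and from TP2 to TP3 treated tumors Itgad fell by 1.17 on the log2 scale (adjusted p = 0.0332), from 3.74, 3.04, 2.88 and 4.74 CPM to 1.68, 1.82, 1.48 and 1.35 CPM. Itgad remained a weakly transcribed gene throughout. The 4 dendritic cell markers (Flt3, Zbtb46, Xcr1, Clec9a) did not rise at TP1, with sums of 42.3 to 47.9 CPM in controls and 36 to 45.3 CPM in treated tumors. At TP2 they summed to 31.6 to 45.1 CPM in controls and 67.5 to 79.6 CPM in treated tumors, and at TP3 to 53.2 to 64.5 CPM. The part of these markers in the changes of Itgae, Itgax and Itgad was not tested.

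Markers of lymphocytes also rose in treated 60577 tumors, beside alphaL, alpha4, beta7 and alphaE. At TP1 the T cell markers summed to 3.95 to 13.1 CPM in controls and 18 to 53.9 CPM in treated tumors, without overlap. The B cell markers summed to 3.06 to 18.4 and 13.8 to 62.9 CPM there, with overlap. The 5 T cell markers summed to 4.44 to 16.4 CPM in TP2 controls, 67.4 to 118 CPM in TP2 treated tumors and 83.3 to 105 CPM at TP3. The 5 B cell markers summed to 2.77 to 19.1, 67.7 to 192 and 240 to 329 CPM in the same groups, and all 5 of each list were called higher at TP2 and TP3. Pan-leukocyte markers summed to 336 to 485 CPM in TP2 controls, 586 to 1123 CPM in TP2 treated and 999 to 1070 CPM in TP3 treated tumors. Their part in the integrin changes was not tested.

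**Figure D3:**
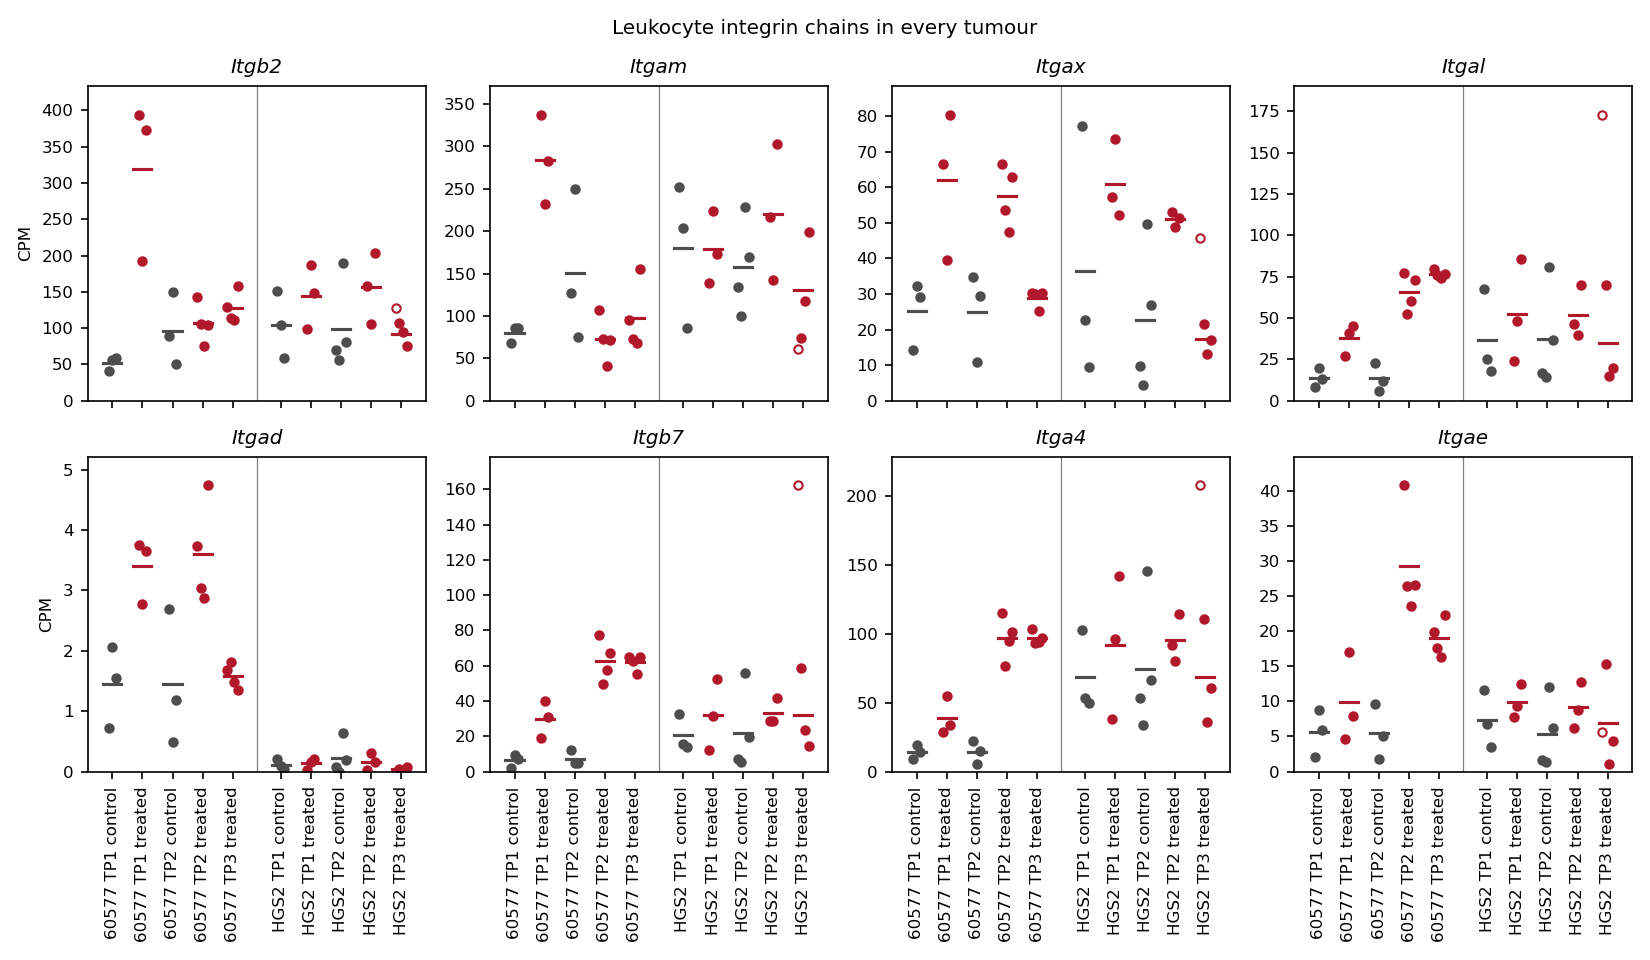
CPM of the 8 leukocyte integrin chains in each tumor (points) by group, gray for control and red for chemotherapy-treated, with bars at the group means and 60577 left of the line in each panel. The open point is HGS2 TP3 treated replicate 1, which is left out of the mean. Itgb2 and Itgam peak at TP1 in 60577, whereas Itgal, Itgb7 and Itga4 are highest at TP2 and TP3.

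RefSeq promoter entries (GRCm38.p6) exist for 23 of the 34 members and for 4 of the 8 leukocyte chains: Itgam, Itgax, Itgb7 and Itga4. They are shown because Itgam went down between TP1 and TP2 while Itga4 went up. Each line gives the 250 bases upstream of the annotated start, 5′ to 3′ on the strand of the gene, and capitals mark GAGGAA or its reverse complement TTCCTC, the core of the PU box bound by ETS family factors of myeloid cells. The windows are chr7:128062390-128062639 (plus strand) for Itgam, chr7:128129300-128129549 (plus strand) for Itgax, chr15:102231936-102232185 (minus strand) for Itgb7 and chr2:79255176-79255425 (plus strand) for Itga4.
Itgam: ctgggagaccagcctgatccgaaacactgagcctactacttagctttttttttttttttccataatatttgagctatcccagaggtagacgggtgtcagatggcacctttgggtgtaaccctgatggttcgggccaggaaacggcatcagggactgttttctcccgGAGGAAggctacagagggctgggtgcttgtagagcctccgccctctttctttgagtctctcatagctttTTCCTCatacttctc
Itgax: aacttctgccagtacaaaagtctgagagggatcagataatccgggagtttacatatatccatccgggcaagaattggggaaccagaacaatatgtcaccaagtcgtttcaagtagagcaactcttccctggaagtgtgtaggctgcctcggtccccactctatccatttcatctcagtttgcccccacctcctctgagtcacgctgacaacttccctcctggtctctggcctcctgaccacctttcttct
Itgb7: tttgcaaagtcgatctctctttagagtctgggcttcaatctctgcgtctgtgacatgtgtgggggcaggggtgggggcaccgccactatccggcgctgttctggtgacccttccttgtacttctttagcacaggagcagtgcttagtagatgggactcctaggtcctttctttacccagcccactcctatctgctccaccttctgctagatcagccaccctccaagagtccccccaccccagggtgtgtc
Itga4: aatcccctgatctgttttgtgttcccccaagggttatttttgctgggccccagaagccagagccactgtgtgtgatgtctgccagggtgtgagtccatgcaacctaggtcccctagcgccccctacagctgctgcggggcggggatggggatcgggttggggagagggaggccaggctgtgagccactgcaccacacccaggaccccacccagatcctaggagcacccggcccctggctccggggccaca
Itgam holds 2 copies, and the other 3 windows hold none. Among all members with an entry, 9 of 23 had at least 1 copy in 1 of their windows, and 23.3% of the 32851 promoter windows in the table did. The first counts genes, which had 29 windows between them, and the second counts windows, so the 2 are not like shares. A match in these letters is a description and no evidence of binding.

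The discoidin domain receptors moved in opposite directions. Ddr2, the collagen receptor of mesenchymal cells, was at 7.42, 13.3 and 11.7 CPM in TP1 controls and 24.3, 15.2 and 12.9 CPM in TP2 controls. It was at 68.8, 81.4 and 40.7 CPM in treated tumors at TP1, 147, 89.4, 57.3 and 95.1 CPM at TP2, and 229, 179, 175 and 235 CPM at TP3. Every treated tumor exceeded every control, and the TP3 tumors exceeded all those of TP1 and TP2. The changes were 5.91-fold, 5.52-fold and 11.7-fold (log2 2.56 ± 0.35, 2.47 ± 0.34 and 3.55 ± 0.36, adjusted p = 0.000104, 4.02e-05 and 1.8e-06), and from TP2 to TP3 treated tumors Ddr2 rose by 1.09 ± 0.29 (adjusted p = 0.0125).

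Ddr1, the epithelial collagen receptor, ranged from 301 to 360 CPM over the 6 controls. Treated tumors had 137 to 199 CPM at TP1, 135 to 205 CPM at TP2 and 125 to 133 CPM at TP3, all below the controls. It was called lower at TP1 (-1.05 ± 0.14, adjusted p = 9.49e-05) and TP3 (-1.29 ± 0.13, adjusted p = 2.04e-06), and at TP2 the change of -0.96 ± 0.13 passed the adjusted p (4.02e-05) but not the fold limit. Over the same groups the 5 epithelial markers, Epcam and 4 keratins, went from 1807 to 2807 CPM in TP2 controls to 287 to 563 CPM in TP2 treated and 194 to 314 CPM in TP3 treated tumors. The fibroblast markers went from 717 to 751 CPM to 666 to 1935 and 2226 to 3024 CPM. Adipocyte markers rose as well, from at most 7.21 CPM in TP2 controls to 74.4 to 875 CPM in TP2 treated and 1364 to 1904 CPM in TP3 treated tumors, with all 4 called higher at each time. All 5 epithelial markers were called lower at each time, and 3, 2 and 4 of the 5 fibroblast markers higher at TP1, TP2 and TP3. The 4 mesothelial markers, which the 60577 line also transcribed at 3090 to 3410 CPM, summed to 1754 to 2341 CPM in TP2 controls, 789 to 1231 CPM in TP2 treated and 550 to 933 CPM in TP3 treated tumors. The part of these marker lists in the changes of Ddr1 and Ddr2 was not tested.

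Of the laminin-binding chains, Itga3 and Itga6 were called lower. Itga3, the alpha chain of a laminin receptor on epithelial cells, was at 285, 349 and 347 CPM in TP1 controls and 109, 150 and 90.3 CPM in TP1 treated tumors. TP2 controls had 283, 299 and 333 CPM, TP2 treated tumors 101, 162, 137 and 123 CPM, and TP3 treated tumors 78.9, 68.6, 89.6 and 89.7 CPM. No treated tumor reached the level of any control, and the log2 fold changes were -1.49 ± 0.19, -1.24 ± 0.17 and -1.90 ± 0.17 (adjusted p = 5.95e-05, 4.27e-05 and 7.36e-07). Itga6, whose product with beta4 anchors hemidesmosomes, was not called at TP1 and was lower at TP2 (-1.57 ± 0.22, adjusted p = 5.18e-05) and TP3 (-1.23 ± 0.22, adjusted p = 0.000302). Without TP2 control replicate 2, whose 331 CPM was the highest value of Itga6 in any 60577 tumor, the TP3 change was -0.90 (adjusted p = 0.00211) and under the fold limit. Itgb4, the gene of beta4, passed the adjusted p at TP2 as higher in treated tumors. Mean levels of Itga6 were 200 CPM in untreated 60577 tumors and 119 CPM in the 60577 line, and 151 and 6.62 CPM in HGS2. Those of Itga3 were lower in tumors than in the line, at 316 and 1126 CPM in 60577 and 62.8 and 543 CPM in HGS2. Itga7, the laminin receptor chain of muscle, ranged from 24.5 to 75.1 CPM in the 60577 tumors and did not pass at any time.

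**Figure D4:**
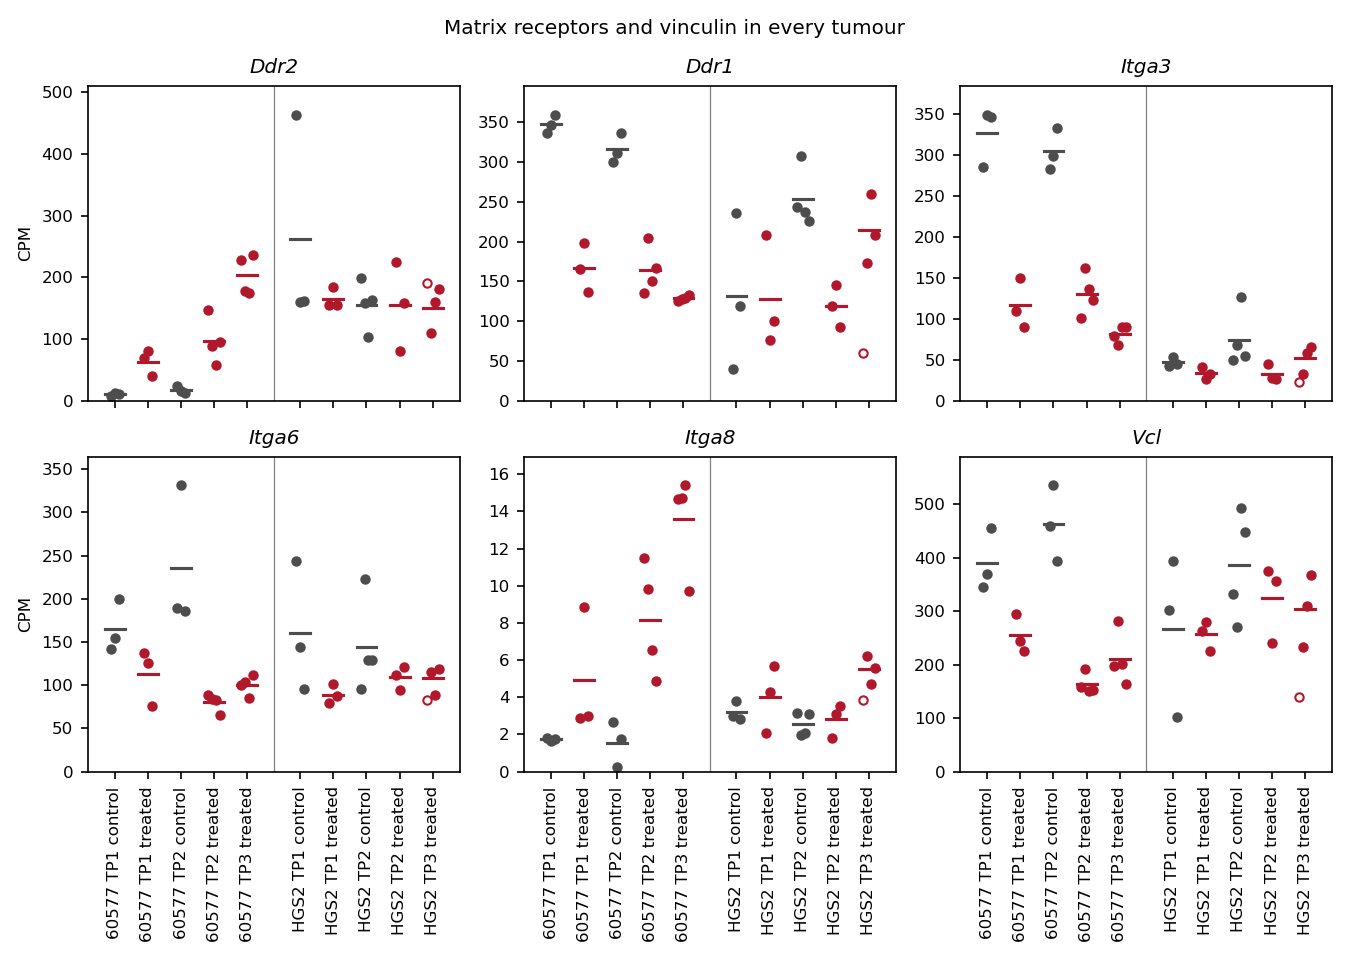
CPM of the discoidin domain receptors Ddr2 and Ddr1, the laminin-binding chains Itga3 and Itga6, Itga8 and Vcl in each tumor (points) by group, gray for control and red for chemotherapy-treated, with bars at the group means and 60577 left of the line. The open point is HGS2 TP3 treated replicate 1, left out of the mean. In 60577 the means of Ddr2 and Itga8 are higher, and those of Ddr1, Itga3, Itga6 and Vcl lower, in TP2 and TP3 treated tumors than in TP2 controls. In HGS2 treated and control points overlap at each time for Ddr2, Itga6 and Vcl, and do not overlap for Itga3 at TP1 and TP2, Ddr1 at TP2 and Itga8 at TP3, where no change passed the test. In groups this small some genes lie apart by chance, and the share of all genes that did was not counted.

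Chains that bind RGD motifs differed among themselves. Itga8, found on smooth muscle and other mesenchymal cells, was at 2.69, 0.247 and 1.75 CPM in TP2 controls, 11.5, 9.81, 6.53 and 4.86 CPM in TP2 treated tumors, and 14.7, 14.7, 15.4 and 9.69 CPM in TP3 treated tumors. These groups did not overlap, and the rise was 2.38 ± 0.57 at TP2 (adjusted p = 0.00263) and 3.13 ± 0.59 at TP3 (adjusted p = 0.000413). Without TP2 control replicate 1, at 2.69 CPM, the changes of Itga8 were 3.07 and 3.82, and without TP2 control replicate 2, at 0.247 CPM, they were 1.86 and 2.61. The 5 smooth muscle markers summed to 80.6 to 175 CPM in TP2 controls, 125 to 290 CPM in TP2 treated and 369 to 532 CPM in TP3 treated tumors, with 2 and 3 of them called higher at TP2 and TP3, and their part in the rise of Itga8 was not tested. Itga5, the fibronectin receptor chain, was at 116, 273 and 78.6 CPM in TP2 controls, 71.5, 82.5, 85.8 and 74.2 CPM in TP2 treated tumors and 60.1, 93.1, 51.3 and 52.8 CPM in TP3 treated tumors. The groups overlapped, and its calls at TP2 (-1.01 ± 0.35, adjusted p = 0.0223) and TP3 (-1.28 ± 0.35, adjusted p = 0.00678) were both lost without TP2 control replicate 2, which held the 273 CPM, at -0.32 (adjusted p = 0.36) and -0.59 (adjusted p = 0.106). With the replicate number as a block the TP2 change of Itga5 was -0.88 (adjusted p = 0.0721). Between TP1 treated tumors, at 225, 115 and 245 CPM, and TP2 treated tumors Itga5 fell by 1.33 (adjusted p = 0.0205).

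Itgav, the alpha chain of the vitronectin receptors, passed the adjusted p at TP2 (-0.80, adjusted p = 0.000177) and TP3 (-0.91, adjusted p = 5.32e-05) with changes under the fold limit. Itga2b, the platelet chain, was at 7.45, 10.3, 14.5 and 17.5 CPM in TP2 treated tumors and 5.44, 5.42, 4.17 and 5.73 CPM in TP3 treated tumors, without overlap, and fell by 1.24 between them (adjusted p = 0.00305). The platelet markers summed to 3.46 to 18.4 CPM in these TP2 tumors and 27.6 to 31.8 CPM at TP3, and the 1 of them that was tested was called higher at TP3 than at TP2. Their part in the change of Itga2b was not tested. Itga9 was called higher at all 3 times, by 1.03 ± 0.27, 1.49 ± 0.26 and 1.33 ± 0.26 (adjusted p = 0.00824, 0.000239 and 0.000518). It went from 27.5 to 59.9 CPM in the 6 controls to 77.0 to 134 CPM in the 11 treated tumors, with no overlap.

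Of the collagen-binding chains, Itga1, found on smooth muscle, endothelium and tissue-resident lymphocytes, was called at TP3. TP2 controls had 30.1, 2.74 and 17.3 CPM and TP3 treated tumors 68.2, 82.7, 83.6 and 49.2 CPM, all higher, a log2 fold change of 2.09 ± 0.53 (adjusted p = 0.00377). Itga2 was called higher at TP1 (1.17, adjusted p = 0.0241) and Itga10, a chain of cartilage, at TP2 (1.56, adjusted p = 0.000935). Itga10 then fell by 1.08 (adjusted p = 0.013), from 7.30, 11.3, 15.6 and 13.0 CPM in TP2 treated tumors to 5.83, 6.31, 4.65 and 5.22 CPM at TP3. Itga11, the collagen receptor of activated fibroblasts, was not called at any time, with log2 fold changes of 0.56 at TP1 (adjusted p = 0.0221), -0.32 at TP2 and 0.05 at TP3.

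Of the 5 tested beta chains outside leukocytes, none was called at TP1 or TP3, and at TP2 1 was, Itgb1, beside 15.6%, 24.4% and 24.4% of all genes called at TP1, TP2 and TP3. It was at 608 to 668 CPM in TP2 controls and 211 to 417 CPM in TP2 treated tumors, a change of -1.06 ± 0.21 (adjusted p = 0.000713), and -0.59 at TP3 (adjusted p = 0.0282). The 7SL RNA took 9.38 to 26.5% of reads in TP2 treated tumors and 2.91 to 14.1% in TP2 controls, and with that share as a covariate the TP2 change of Itgb1 was -0.69 (adjusted p = 0.0108). With this covariate 11 members were called at TP2, and without TP2 control replicate 2 the count was 12. The covariate left 2811 of all genes called at TP2, against 3969 in the main fit. Itgb5 and Itgb8, which bind vitronectin and latent TGF-beta, were never called, although Itgb8 passed the adjusted p at TP1 (-0.45, adjusted p = 0.0129) and TP3 (-0.56, adjusted p = 0.000988). Itgb3 passed the adjusted p at TP1 (0.88, adjusted p = 0.00228) and Itgb4 at TP2 (0.74, adjusted p = 0.0341).

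Among the 6 focal adhesion proteins, Vcl, vinculin, showed the largest decrease. Its level was 459, 535 and 394 CPM in TP2 controls, 157, 193, 150 and 153 CPM in TP2 treated tumors and 198, 282, 202 and 164 CPM in TP3 treated tumors. All treated tumors of TP2 and TP3 lay below the controls (-1.52 ± 0.18, adjusted p = 1.22e-05, and -1.13 ± 0.18, adjusted p = 9.45e-05), and at TP1 the change of -0.61 passed the adjusted p (0.0226). Tln2, the second talin, rose at TP3 (1.47 ± 0.14, adjusted p = 1.14e-06), from 40.3 to 52.9 CPM in TP2 controls to 105 to 140 CPM, after smaller changes of 0.50 and 0.56 at TP1 and TP2 that passed the adjusted p. Ptk2, focal adhesion kinase, was lower by 0.35, 0.37 and 0.60 on the log2 scale at the 3 times (adjusted p = 0.0464, 0.0156 and 0.000729). The TP1 result of Ptk2 was lost under 15 of 18 alternatives, including each one that left out a TP1 tumor, at an adjusted p of up to 0.166. Ilk and Tln1 passed only at TP2, at -0.35 and -0.50, and Pxn, paxillin, passed at no time.

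Other genes of adhesion complexes formed a list of which 33 were tested. Of these 4 were called higher and 1 lower at TP1, 1 and 3 at TP2, and 4 and 4 at TP3, which is 15.2%, 12.1% and 24.2% of them, against 15.6%, 24.4% and 24.4% of all genes called. Lims2, the PINCH2 adaptor of integrin-linked kinase, rose at each time, by 2.49, 2.65 and 4.23 on the log2 scale. Fermt3, the kindlin of blood cells, was called at TP1 (1.29), while Parvb, an actin-binding parvin, was called lower at TP2 (-1.3) and TP3 (-1.16). Of 31 tested integrin ligands, 5 were called higher and 3 lower at TP1, 2 and 5 at TP2, and 6 and 6 at TP3, or 25.8%, 22.6% and 38.7%, against the same shares of all genes. Among ligands of the chains above, Cdh1, the E-cadherin that alphaE binds, fell at each time, with log2 fold changes of -1.06, -2.54 and -3.28. Lama2, a laminin of mesenchymal basement membrane, rose by 2.13 at TP2 and 3.27 at TP3. Spp1, osteopontin, rose by 1.84 at TP1 and fell by 3.11 and 4.91 at TP2 and TP3.

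Over the whole set, 4 of 33 members were called between TP1 and TP2 treated 60577 tumors (Itgam, Itgb2 and Itga5 lower, Itga4 higher), with 6.02% of all genes called, 3.58% higher and 2.44% lower, and 8 passed by the adjusted p alone, as did 19.3% of all genes. Between TP2 and TP3 treated tumors 4 were also called (Itgad, Itga10 and Itga2b lower, Ddr2 higher), with 7.87% of all genes called, 3.47% higher and 4.4% lower, and 10 passed by the adjusted p alone, as did 35% of all genes. With the 7SL share as a covariate, 2 members were called in the first comparison and 0 in the second. Of all genes, 398 and 7 were called. That share was 9.38 to 26.5% in TP2 treated and 1.93 to 5.89% in TP3 treated tumors, without overlap. In the second comparison the covariate and the time point thus cannot be told apart.

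Several 60577 calls rested on single tumors. At TP1 the call of Itgad (adjusted p = 0.0485) was lost without control replicate 1 or 3 or any of the 3 treated replicates, and those of Itgax and Itga2 without control replicate 1 or treated replicate 3. Leaving out TP1 treated replicate 3 also brought Ddr1 to -0.93 and Itga9 to 0.87, and leaving out TP1 control replicate 1 brought Itga9 to 0.81, under the fold limit. At TP2 Itgax and Itgad were lost without control replicate 2 (0.83, adjusted p = 0.0327, and 0.87, adjusted p = 0.0742), Itgad also without control replicate 3 or treated replicate 4, and Itgam without control replicate 2 (-0.48, adjusted p = 0.271) or treated replicate 3 or 4. Itgb1 at TP2 was at -0.92 without treated replicate 3 or 4, and Itga5 at -0.995 and -0.985 without treated replicate 1 or 4, all under the fold limit. Between TP1 and TP2 treated tumors Itga4 and Itga5 were lost without TP1 treated replicate 1 or 3 or TP2 treated replicate 4, which left a count of 2. Between TP2 and TP3 treated tumors Itgad was lost without any 1 of 6 of the 8 tumors, Ddr2 was at 0.90 and Itga10 at -0.92 without TP2 treated replicate 3, which left a count of 2, and without TP2 treated replicate 1 the count was 7.

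In HGS2 tumors no member passed at any time by edgeR, and 0% of all 16241 genes did. Members at an unadjusted p under 0.05 numbered 2 at TP1, 3 at TP2 and 2 at TP3 by edgeR, 2, 4 and 2 by limma-voom, and 1, 3 and 2 by DESeq2, and no member passed by either of these. Where nothing changes, a share of 0.05 of tests is expected under that limit, and the share of all genes under it was not counted. DESeq2 called 1, 8 and 5 of all genes. The lowest unadjusted p at TP2 belonged to Itga3, whose log2 fold change was -1.17 ± 0.33 (adjusted p = 0.588), from 49.3, 68.2, 126 and 54.8 CPM in controls to 45.4, 27.4 and 27.0 CPM in treated tumors, which did not overlap. Ddr1 at TP2 was at 243, 308, 238 and 226 CPM in controls and 119, 145 and 93.0 CPM in treated tumors, also without overlap (-1.10 ± 0.48, adjusted p = 0.637). Over the same tumors the epithelial markers summed to 137 to 720 CPM in controls and 77.3 to 131 CPM in treated tumors, and the 4 mesothelial markers to 1449 to 2352 and 395 to 631 CPM, neither with overlap, and their part in the values of Itga3 and Ddr1 was not tested. These 2 genes were singled out after their values were seen. In groups this small some genes lie apart by chance, and the share of all genes without overlap was not counted. Chains of lymphocytes varied widely within HGS2 groups: Itgb7 ran from 5.53 to 55.6 CPM in TP2 controls alone. HGS2 TP3 treated replicate 1, the library left out, had 162 CPM of Itgb7, 173 CPM of Itgal and 208 CPM of Itga4, each the highest value of any tumor, and with it no member passed either.

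The response of the models was compared directly, as the treated minus control difference in HGS2 less that in 60577. At TP1 1 of 33 members was called, Ddr2 (-3.22 ± 0.57, adjusted p = 0.00705), and 1.45% of all genes were, 0.449% with a higher and 0.997% with a lower response in HGS2. A fit on the compared groups alone gave the same difference at an adjusted p of 0.076. HGS2 controls had 464, 160 and 161 CPM of Ddr2 and TP1 treated tumors 155, 184 and 155 CPM, values that overlapped. At TP2 4 members were called, 1 higher and 3 lower in HGS2, and 6.9% of all genes, 3.68% higher and 3.21% lower. Ddr2 again responded less in HGS2 (-2.49 ± 0.54, adjusted p = 0.00832), with 198, 158, 104 and 163 CPM in TP2 controls and 224, 80.3 and 159 CPM in TP2 treated tumors.

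The other 3 were Itga4 (-2.42 ± 0.68, adjusted p = 0.0264), Itga8 (-2.26 ± 0.70, adjusted p = 0.0399) and Vcl (1.25 ± 0.40, adjusted p = 0.0476). In HGS2, Itga4 was at 53.4, 33.5, 146 and 66.6 CPM in TP2 controls and 92.2, 80.0 and 114 CPM in treated tumors. Itga8 was at 3.14, 1.96, 2.08 and 3.09 CPM in TP2 controls and 1.79, 3.12 and 3.51 CPM in treated tumors. Vcl was at 333, 270, 494 and 448 CPM in TP2 controls and 375, 241 and 357 CPM in treated tumors. In all 3 the HGS2 groups overlapped. With the replicate number as a block within each model, only Ddr2 remained called at TP2, and the adjusted p was 0.0703 for Itga4, 0.0665 for Itga8 and 0.0973 for Vcl. Without 60577 TP2 control replicate 2 the calls of these 3 were lost, at an adjusted p of 0.0915, 0.0919 and 0.134. Each was lost without other single tumors as well, Itga4 without 3 of the 14 tumors compared, and Itga8 and Vcl without 10 each.

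Untreated tumors of the models already differed in 12 of 33 members (36.4%), 10 higher and 2 lower in HGS2, with 22% of all genes called, 13.2% higher and 8.81% lower. Ddr2 was highest above 60577: 7.42 to 24.3 CPM over 6 controls (median 13.1) against 104 to 464 CPM over 7 HGS2 controls (median 161), no overlap, a 14.7-fold difference (log2 3.87 ± 0.31, adjusted p = 2.22e-10). Itga10 was at 2.90 to 9.65 CPM (median 4.47) in 60577 and 4.93 to 56.9 CPM (median 36.5) in HGS2 (2.83 ± 0.40, adjusted p = 2.41e-06), where the lowest HGS2 tumor lay within the 60577 range. Itga4 was at 5.52 to 22.1 CPM (median 14.6) against 33.5 to 146 CPM (median 53.4) (2.32 ± 0.36, adjusted p = 8.81e-06), without overlap.

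Itgb3, the beta chain of the platelet and osteoclast vitronectin receptors, was at 20.1 to 30.2 CPM (median 21.4) against 24.2 to 147 CPM (median 99.4), with 1 HGS2 tumor inside the 60577 range (2.07 ± 0.29, adjusted p = 1.78e-06). Lower in HGS2 were Itga3, at 283 to 349 CPM (median 316) in 60577 and 42.7 to 126 CPM (median 53.6) in HGS2 without overlap (-2.42 ± 0.20, adjusted p = 6.21e-10), and Itgad, at 0.493 to 2.69 CPM (median 1.37) and 0 to 0.640 CPM (median 0.0946) with some overlap (-3.11 ± 0.56, adjusted p = 6e-05). The other 6 called members were higher in HGS2: Tln2 by 1.96, Itga1 by 1.80, Itga11 by 1.72, Itgb7 by 1.64, Itgal by 1.44 and Itga5 by 1.34 on the log2 scale. Itga5 was under the fold limit, at 0.84, without HGS2 TP1 control replicate 1, which held 841 CPM. Epithelial markers summed to 1519 to 2807 CPM in the 60577 controls and 14.9 to 720 CPM in the HGS2 controls. In the same order, fibroblast markers summed to 593 to 751 and 896 to 2759 CPM. Pan-leukocyte markers summed to 231 to 485 and 421 to 1646 CPM, and macrophage markers to 320 to 600 and 768 to 1375 CPM. T cell markers were at 3.95 to 16.4 and 2.8 to 52.4 CPM, and B cell markers at 2.77 to 19.1 and 7.31 to 349 CPM. Their part in these differences was not tested.

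The cultured lines differed in 9 of 27 tested members (33.3%), 5 higher and 4 lower in HGS2, with 15.9% of the 13742 genes tested called, 7.55% higher and 8.38% lower. Ddr2 was at 13.0 and 2.78 CPM in 60577 and 188 and 260 CPM in HGS2 (4.85 ± 0.77, adjusted p = 0.0168). Itga10 was at 0.724 and 0.918 CPM against 65.9 and 29.6 CPM (5.87 ± 0.53, adjusted p = 0.00432). Itga1 was at 2.03 and 1.48 CPM against 51.1 and 18.1 CPM (4.33 ± 0.60, adjusted p = 0.0117). Each pair of libraries was apart from the other.

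Itga4 was at 0.290 and 0.259 CPM in the 60577 line and 4.25 and 9.45 CPM in HGS2 (4.64 ± 0.56, adjusted p = 0.00825), and Itgb3 was higher in HGS2 by 2.68 ± 0.26 (adjusted p = 0.005). Lower in the HGS2 line were Itga2, at 10.1 and 21.8 CPM in 60577 and at 8 and 1 counts in the HGS2 libraries (adjusted p = 0.00989, with a fitted log2 fold change of -6.74 that depends on the prior count), and Itga6, at 119 and 118 against 5.19 and 8.05 CPM (-4.15 ± 0.27, adjusted p = 0.00208). Itgb4, the partner of alpha6, was lower by 2.81 ± 0.51 (adjusted p = 0.0215). Itga3 was lower by 1.04 ± 0.26 at an adjusted p of 0.0492, and without 60577 line replicate 1 or 2 that p was 0.23 or 0.393. Members not tested in the lines were Itgam, Itgax, Itgad, Itgae, Itgb7, Itga9 and Itgb6. Without 60577 line replicate 2 the count of called members was 5, and the calls of Itga4 (adjusted p = 0.0561), Itga1 (adjusted p = 0.065) and Itgb4 (adjusted p = 0.124) were lost too.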

How the data were processed

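Total RNA of tumors and cell lines was depleted of ribosomal RNA and sequenced strand-specifically as paired ends. The deposited values are expected counts per gene, which the authors made with Trim Galore 0.6.5, STAR 2.7.0f and RSEM on GRCm38/mm10, in 1 table for the tumors and a separate one for the lines. They were rounded to whole counts here. Levels are CPM, counts scaled to library size, after TMM scaling over all 38 libraries. Tests used edgeR 4.0.16 (quasi-likelihood, TMM, R 4.3.3), per model for comparisons within a model and on the lines alone for the lines. Comparisons between the tumors of both models came from a joint fit of 33 tumors, in which both models share 1 estimate of spread. Genes tested had reached 1 CPM in 25% or more of the libraries, 16241 in tumors and 13742 in lines. Benjamini-Hochberg adjustment was over all of them. The script was tested on simulated data. The 34 members and all gene lists were chosen with earlier results of these data known. Values in every sample are given for up to 6 members per comparison, the called members of largest change with a mean of at least 1 CPM in a compared group.

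Alternatives were limma-voom 3.58.1, the DESeq2 1.42.0 Wald test and size factors, other filters, covariates, a replicate block and leaving out each library. For comparisons within a model, a joint fit of both models was a further alternative. HGS2 TP3 treated replicate 1 was left out because the study's own tables leave it out. Same-numbered control and treated tumors shared a number in their labels. Their deviations correlated at 0.144, 0.114 and 0.134 for 60577 TP2 and at 0.138, 0.295 and 0.296 for HGS2 TP2. At TP1 they correlated at 0.131, 0.113 and -0.0516 in 60577 and at -0.163, -0.279 and 0.0876 in HGS2. With TP2 controls, TP3 treated tumors correlated at 0.1, 0.0612 and 0.176 in 60577 and at 0.297, -0.102 and 0.151 in HGS2. The replicate number was also fitted as a block, over all groups of a model at once and not as pairs within a time point. No 2 replicates were copies: over 44 pairs, chi-square per degree of freedom of their counts was 10.5 or more. The labels do not say which tumors shared a cage or day, and the 2 libraries of each line are not said to be separate cultures, so p-values there measure the spread between these libraries. Intervals from counts of 0 cover counting error only. The values of 1 ligand gene are not reported here.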

Additional observations from a re-analysis of the deposited data

Results flagged for a closer look

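Over the 33 tested members and the groups of 4 tumors, 132 sets of values in all, 1 tumor stood far from the other 3 in 8 sets, where chance gives about 1 set in 20. The count of 8 is near that rate, so the sets below are given as values only. Itgax was at 25.1 CPM in 60577 TP3 treated replicate 3 and at 30.1 to 30.3 CPM in the other 3 tumors. In that tumor Itga11 was at 32.2 CPM, against 33.6 to 33.8 CPM. In 60577 TP3 treated replicate 4, Itga8 was at 9.69 CPM, against 14.7 to 15.4 CPM, and Tln2 at 105 CPM, against 135 to 140 CPM. Tln2 was at 84.6 CPM in 60577 TP2 treated replicate 1 and at 62.7 to 65.6 CPM in the others. In HGS2 TP2 control replicate 3, Itga2 was at 14.3 CPM, against 2.55 to 3.24 CPM, and Pxn at 189 CPM, against 130 to 133 CPM. Itga2b was at 17.7 CPM in HGS2 TP3 treated replicate 2, which also held 69645 CPM of pancreatic acinar genes, and at 8.14 to 9.26 CPM in the others.

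The response to chemotherapy differed between the models, as HGS2 minus 60577 on the log2 scale by edgeR's interaction test, in Ddr2 at TP1 (-3.22, adjusted p = 0.00705) and TP2 (-2.49, adjusted p = 0.00832). At TP2 it also differed in Itga4 (-2.42, adjusted p = 0.0264), Itga8 (-2.26, adjusted p = 0.0399) and Vcl (1.25, adjusted p = 0.0476). In 60577 Ddr2, Itga4 and Itga8 were called higher and Vcl lower at TP2, and in HGS2 the TP2 changes of the 4 were -0.03, 0.36, 0.12 and -0.26 with no call.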

How the results depend on the processing

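Of 111 member results that passed the adjusted p, 53 kept their side of the threshold under every alternative (for called results, the fold limit as well as the adjusted p), 58 did not under at least 1, and 0 reversed. Leaving out 1 library at a time gave 7 to 13 called members at 60577 TP1, 12 to 17 at TP2, 13 to 15 at TP3, 2 to 6 between TP1 and TP2 treated tumors, 2 to 7 between TP2 and TP3 treated tumors, 11 to 13 between untreated models, 5 to 11 between lines, and 1 to 4 and 1 to 7 for the difference between models at TP1 and TP2. The HGS2 counts were 0 under all alternatives, including all 17 tumors. Between TP1 and TP2 treated 60577 tumors the 4 calls were 2 with the 7SL covariate, 2 in the joint fit and 8 by the adjusted p alone. With the replicate number as a block they were 2, in a comparison whose samples share only a number. Of all genes, 977 were called in the main fit, 398 with the 7SL covariate, 271 in the joint fit and 570 with the block. Between TP2 and TP3 the 4 calls were 0 with the 7SL covariate, 2 in the joint fit and 10 by the adjusted p alone. There 1278 of all genes were called in the main fit, 7 with that covariate and 803 in the joint fit. For the TP1 difference the 1 call was 3 with the 7SL covariate, 3 by the DESeq2 Wald test, 2 with DESeq2 size factors, 3 with the acinar covariate and 0 with only the compared groups. It was 2 without 60577 TP1 treated replicate 2, HGS2 TP1 control replicate 3 or HGS2 TP1 treated replicate 2, and 4 without HGS2 TP1 control replicate 2. Over all genes the main fit called 235, the 7SL covariate 396, the DESeq2 Wald test 721 and DESeq2 size factors 274. The acinar covariate gave 506 and the compared groups alone 11.

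For the TP2 difference the 4 calls were 1 with the 7SL covariate, 11 by the DESeq2 Wald test, 2 with no filter, 9 with the acinar covariate, 1 with the replicate block and 1 with the block and a length and GC offset. They were 7 without 60577 TP2 control replicate 1, 1 without 60577 TP2 control replicate 2 or HGS2 TP2 treated replicate 1, and 2 without 60577 TP2 treated replicate 3, HGS2 TP2 control replicate 4 or HGS2 TP2 treated replicate 3. Over all genes the main fit called 1120, the 7SL covariate 197, the DESeq2 Wald test 1666 and no filter 754. The acinar covariate gave 1510, the block 618 and the block with the offset 792. The cause of these shifts was not tested. In the TP2 comparisons of treated with control tumors the block lost the call of Itga5 and took Itgb4 past the adjusted p (0.0538) in 60577. It changed no other result there. Same-numbered lines deviated in opposite directions (-0.153), and a block with crossed numbers, chosen after seeing the data, gave 9 called members, as did the main fit. Levels use the merged exon length, and 13 members reached 10 CPM per kb in untreated 60577 tumors, or 15 with the longest transcript. With 2 libraries per line, leaving 1 out leaves a lone library that is assumed to vary like the other pair.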

Other observations

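HGS2 TP3 treated replicate 1, which was left out of the main fits, held 1931 CPM of pan-leukocyte markers and 164 CPM of T cell markers, against 805 to 1119 CPM and 7.25 to 70.9 CPM in the other 3 TP3 tumors. Its Itgam, at 61.1 CPM, was lower than in the other 3, at 74.4, 118 and 199 CPM. Its Itgb2 was at 128 CPM, against 108, 94.6 and 75.8 CPM.

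Itga10 reached 240 CPM in HGS2 TP3 treated replicate 3, and the TP3 treated tumors of the fit, at 73.4, 240 and 82.4 CPM, lay above the TP2 controls, at 25.5, 36.5, 53.4 and 56.9 CPM (log2 fold change 1.63 ± 0.62, unadjusted p = 0.0201, which did not pass by edgeR after adjustment). The share of all genes without overlap between these groups was not counted, and some lie apart by chance.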
